A study of Mus musculus with 6 samples.

Results

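The genes described here make, conjugate, carry and sense bile acids. They are 33 genes chosen by name for these roles, and each symbol was matched to 1 Ensembl gene among the 55487 genes of the deposited tables. Their mRNA was read by poly(A) RNA sequencing of frozen liver (20 mg per animal) in 6 males aged 8 weeks and fed standard chow. The WT group held 3 animals of the inbred substrain BALB_cJ. The SCADD group held 3 animals of the related substrain BALB_cByJ, which is deficient in an enzyme of mitochondrial fatty acid oxidation, short-chain acyl-CoA dehydrogenase. All animals had free access to food and a regular light-dark cycle, and the time of day at collection is not given in the sources used here. Genotype and substrain coincided in all 6 animals, so the enzyme defect and other substrain variants cannot be told apart. The 3 animals of a group were described as biological replicates.

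Bile acids are made from cholesterol in hepatocytes. The classical route begins with Cyp7a1 and yields cholic acid when Cyp8b1 acts, while the alternative route begins with side-chain oxidation by Cyp27a1 and continues through Cyp7b1. The products are joined to taurine or glycine, exported across the canalicular membrane by Abcb11, taken up again in the ileum and returned by portal blood to basolateral carriers such as Slc10a1. The nuclear receptor FXR (Nr1h4) senses bile acids and, through SHP (Nr0b2) in liver and through a gut hormone read by Fgfr4 with Klb, restrains their synthesis.

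Gene counts summed to between 23991104 and 27148756 in WT libraries and between 16948986 and 23912744 in SCADD libraries. Unmapped reads made up 13.6% to 16.4% of reads in WT and 25.1% to 36.6% in SCADD, so this measure differed with the groups, and its part in the results was not tested. Acads, the gene of the deficient enzyme, was lower in each SCADD library than in any WT library (97.0 to 104 against 166 to 196 CPM; log2 fold change -0.86, SE 0.13, adjusted p = 0.00407). CPM are read counts divided by a library size adjusted by the TMM method, and p-values come from edgeR's quasi-likelihood test with Benjamini-Hochberg adjustment over all 13498 tested genes, called at 0.05. Fold changes are SCADD against WT throughout. In whole liver, fewer cells of a type and less RNA per cell cannot be told apart.

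Of the 33 genes, 29 passed the filter on low counts. Lower in SCADD livers were Cyp7b1 and Cyp39a1 of the alternative and oxysterol routes, Slc27a5 of conjugation, the basolateral carriers Slc10a1 and Slco1a4, and the sterol exporter subunit Abcg5. The phospholipid exporter Abcb4 and the receptor Fgfr4 were higher. These were 6 lower and 2 higher genes of the 29 tested, or 27.6%, against 7.02% of all tested genes, with 2.80% of all tested genes lower and 4.22% higher. Groups did not overlap in CPM for 7 of the 29 with SCADD below and 6 with SCADD above, against 13.1% and 14.9% of all tested genes. The median log2 fold change of the 29 was 0.02, beside -0.00078 over all tested genes. Without WT replicate 2 the counts were 4 lower and 0 higher. Without SCADD replicate 1 or SCADD replicate 2, 1 gene was called higher in each case, and without SCADD replicate 3 there were 5.

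**Figure D1:**
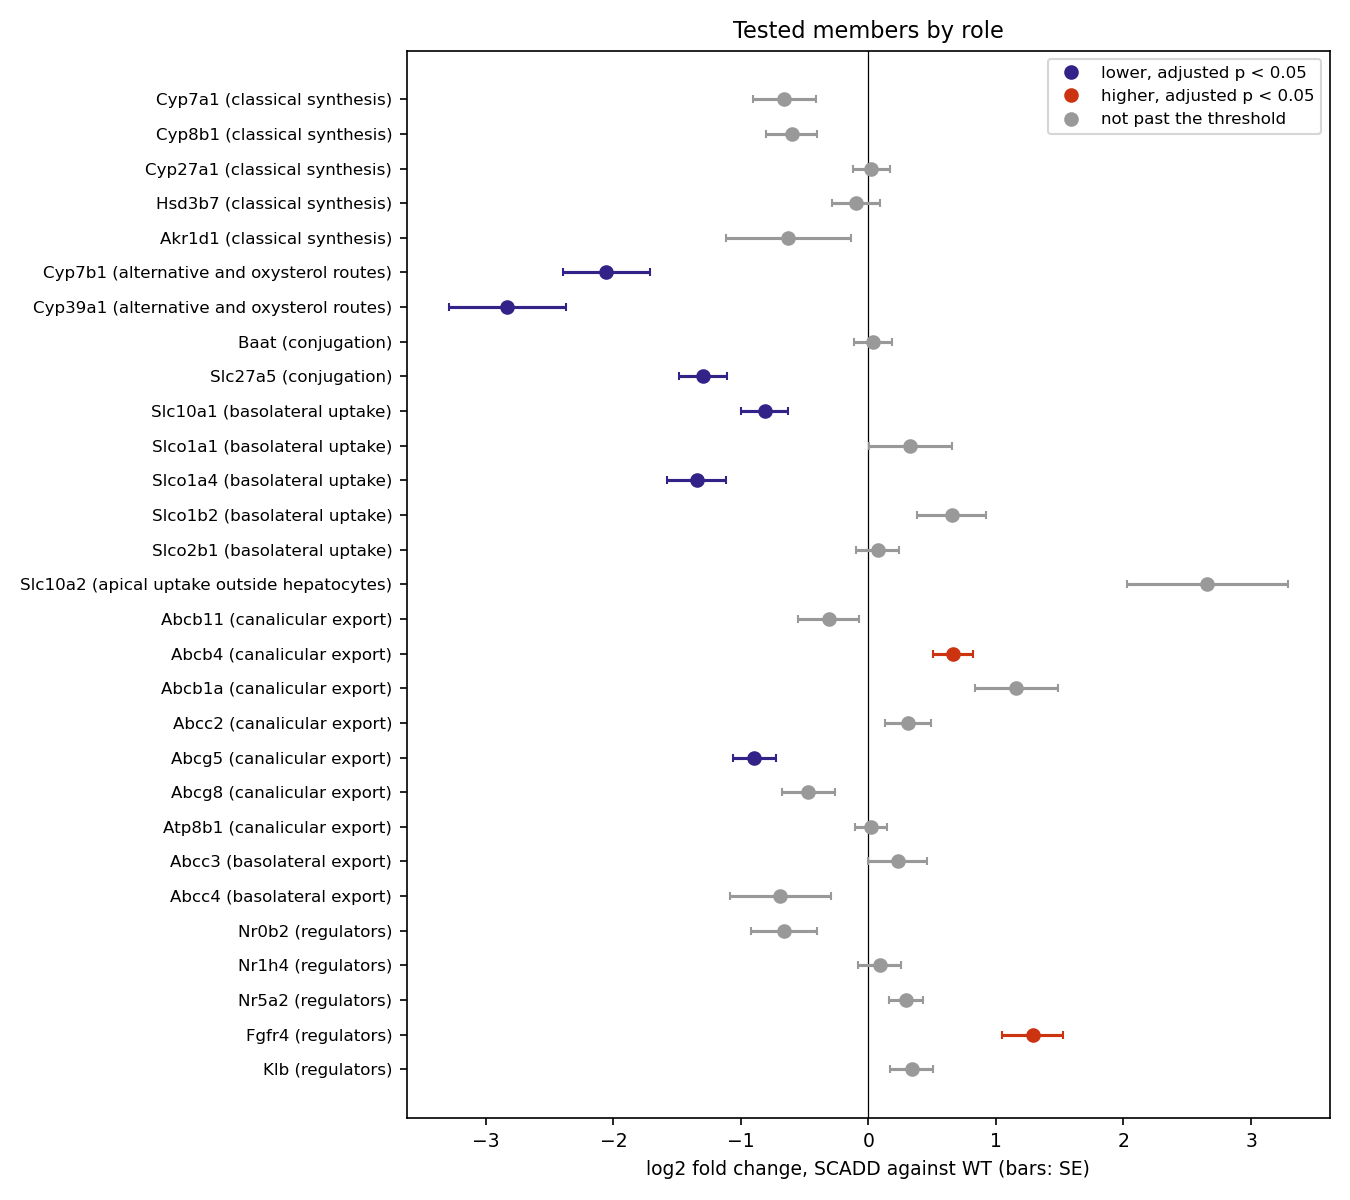
Log2 fold change of SCADD against WT (x axis) for the 29 tested genes, each labelled with its role; points are edgeR estimates from 3 libraries a group and bars are SE. Cyp39a1 (-2.83) and Cyp7b1 (-2.06) lie farthest to the left, and Slc10a2 (2.66), which did not pass the threshold, farthest to the right. The Hsd3b7 point rests on the few reads that the STAR counts assign to it.

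The levels of these genes spanned several orders of magnitude. On the length-scaled TPM scale, on which genes can be compared with each other within a library, 9 of the 33 exceeded 100 TPM on average in WT livers and 6 lay under 1 TPM. The carrier Slco1b2 stood first at 940.0 ± 13.7 TPM (SD, n = 3), followed by Slc10a1 at 759 ± 82.5, Slc27a5 at 574 ± 41.7 and Hsd3b7 at 466 ± 37.2. These 4 did not overlap with their neighbours in that order. Slco1a1 (268 ± 27.6 TPM) and Cyp8b1 (244 ± 81.8) overlapped, as did each neighbouring pair from Baat (167 ± 12.6) through Cyp7b1 (157 ± 58.1) and Cyp27a1 (100.2 ± 9.70) to Abcb11 (91.8 ± 17.8). Cyp7a1, although it opens the classical route, was only in place 21 at 13.6 ± 4.87 TPM. In SCADD livers Slco1b2 and Slc10a1 kept places 1 and 2, while Cyp7b1 moved from place 8 to 12, Cyp39a1 from 17 to 25 and Slco1a4 from 12 to 17. TPM within a library depends on every other transcript, so comparisons of 1 gene between libraries below use CPM.

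**Figure D2:**
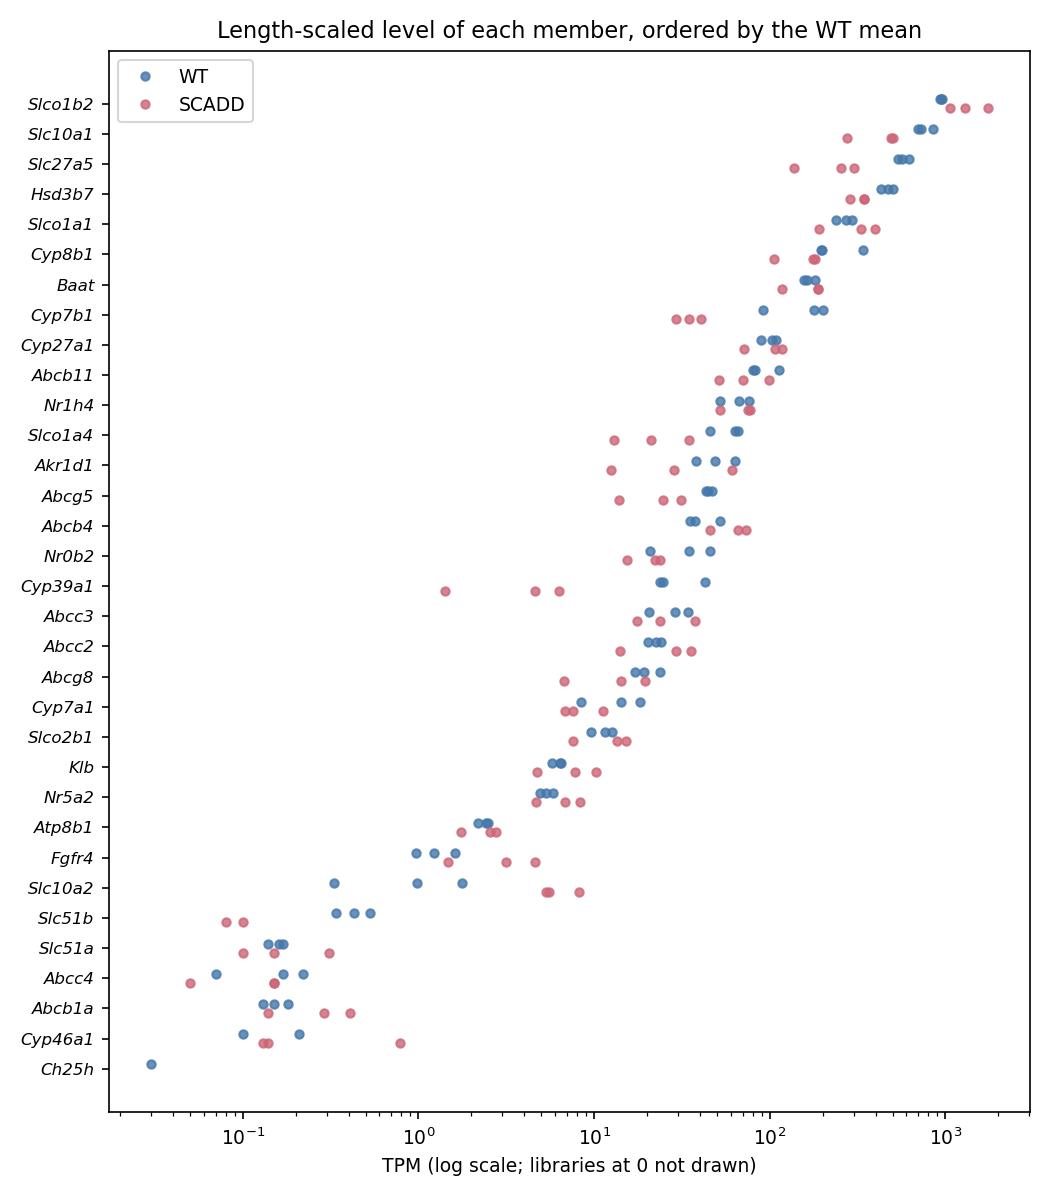
TPM on a log axis for each of the 33 genes, ordered by the WT mean, with 1 point per library and libraries at 0 not drawn. Cyp39a1 and Cyp7b1 show SCADD points apart on the left of the WT points, and Slc10a2 on the right.

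In the classical route none of 5 genes passed the threshold in edgeR (2 did at an unadjusted p under 0.05, and DESeq2 called Cyp8b1 lower). Cyp7a1, the rate-limiting enzyme, measured 71.2, 60.4 and 36.5 CPM in the WT livers and 44.7, 29.5 and 32.1 CPM in the SCADD livers, each in the order of replicates 1 to 3, as in all such lists that follow. WT replicate 3 fell among the SCADD values, so the groups overlapped (log2 fold change -0.66, SE 0.25, adjusted p = 0.146). Over the 15 alternatives its adjusted p ran from 0.00103 to 0.353, and it passed without WT replicate 3 at 0.0415, with no filter at 0.00103 and with the replicate number as a block at 0.0381.

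Cyp8b1, the hydroxylase that directs synthesis to cholic acid, measured 580.3, 362 and 375 CPM in WT and 310.5, 305 and 252 CPM in SCADD. All 3 SCADD livers lay under the lowest WT liver, though the difference did not pass (log2 fold change -0.60, SE 0.20, adjusted p = 0.103). Its adjusted p ran from 0.0124 with no filter to 0.298 without WT replicate 1, where the log2 fold change was -0.36. With DESeq2 it was 0.0386. Cyp27a1, which starts side-chain oxidation for both routes, measured 159 to 186 CPM in WT and 151 to 185 CPM in SCADD, with a log2 fold change of 0.02 (SE 0.15). Akr1d1, the reductase that bends the steroid ring system, had the largest SE of the 5 classical genes, with 92.7, 170.0 and 137 CPM in WT and 69.2, 149 and 40.6 CPM in SCADD (adjusted p = 0.520, log2 fold change -0.63, SE 0.49). Without SCADD replicate 2 its log2 fold change was -1.28 (adjusted p = 0.0731), without SCADD replicate 3 it was -0.29, and over all alternatives the adjusted p ran from 0.0731 to 0.767.

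Hsd3b7, the oxidoreductase that acts after the initial hydroxylation in both routes, needs the RSEM counts. Its exons are shared on the same strand with the annotated gene Gm49388, and the STAR table held only 1.24% to 2.09% of the reads that RSEM assigned to Hsd3b7. On RSEM expected counts its level was 648, 670 and 628 CPM in WT and 468, 447 and 534 CPM in SCADD, so every SCADD library lay below the WT libraries. The RSEM log2 fold change was -0.43 (SE 0.15) with an adjusted p of 0.130, against -0.10 (SE 0.19, adjusted p = 0.818) from the few STAR reads.

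The alternative and oxysterol routes held the deepest falls among the tested genes. Cyp7b1, the oxysterol hydroxylase of the alternative route (ENSMUSG00000039519, chromosome 3, 18071950 to 18243338, GRCm38), measured 352, 197 and 444 CPM in the WT livers and 70.9, 56.9 and 111 CPM in the SCADD livers. The highest SCADD value stayed under the lowest WT value, although the WT livers differed among themselves by more than the SCADD livers did. On average Cyp7b1 stood at 331 ± 125 CPM in WT and 79.7 ± 28.2 CPM in SCADD (SD, n = 3 each), and edgeR gave -2.06 on the log2 scale with SE 0.34 and an adjusted p of 0.0101. It passed under each of the 15 alternatives, with adjusted p of at most 0.0371.

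Cyp39a1, which hydroxylates the brain-derived oxysterol made by Cyp46a1 (ENSMUSG00000023963, chromosome 17, 43667425 to 43751431), measured 53.8, 102 and 59.1 CPM in WT and 14.7, 10.5 and 4.53 CPM in SCADD. The groups stood well apart, and the means of 71.6 ± 26.4 and 9.92 ± 5.12 CPM differed by -2.83 on the log2 scale, with SE 0.46 and an adjusted p of 0.0174. Over the 15 alternatives its adjusted p ran from 4.02e-06 to 0.127, and the call was lost without SCADD replicate 2 (0.127) and with no filter (0.0912). Cyp46a1 itself, known from neurons, and Ch25h, the cholesterol hydroxylase of immune cells, were too low to test. Cyp46a1 had 1, 5 and 3 counts in WT and 9, 27 and 5 in SCADD, and Ch25h had 1 count in all 6 libraries together.

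Genes with a known sex bias in mouse liver were counted beside these, since Cyp7b1 is a male-biased liver gene. Slco1a1 of the set is also male-biased and did not pass (log2 fold change 0.33, SE 0.32). The female-biased Slco1a4 of the set was lower (-1.35, SE 0.23, adjusted p = 0.00738). Of 13 tested male-biased genes, 3 were lower (Hsd3b5, -2.57; Selenbp2, -2.80; Cspg5, -1.60 on the log2 scale) and 2 higher (Susd4, 2.22; Cyp4a12a, 0.63, named after its values were seen). The counts of this and each later list are to be read beside 2.80% of all tested genes lower and 4.22% higher. Among female-biased genes, Acot3 (4.17) and Tox (1.80) were higher. Without SCADD replicate 3 Selenbp2 had an adjusted p of 0.0578, and Cyp4a12a (SE 0.15, adjusted p = 0.0301) passed when SCADD replicate 3 was dropped but not when another library was (0.0558 to 0.134). Without WT replicate 1, 2 or 3 or SCADD replicate 1 the male-biased genes held 1 higher call. The summed male-biased level was 5123 to 8899 TPM in WT and 3503 to 3584 TPM in SCADD, and its part in the Cyp7b1 difference was not tested.

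Of the conjugation pair, the activating enzyme fell while the transferase did not pass. Slc27a5, the hepatic ligase that makes bile acid thioesters (ENSMUSG00000030382, chromosome 7, 12988346 to 12998192), measured 1265, 1253 and 1229 CPM in WT and 538, 598 and 389 CPM in SCADD. The WT livers lay close together and far above all SCADD livers. Its log2 fold change was -1.30 (SE 0.19, adjusted p = 0.00285), with means of 1249 ± 18.3 and 508 ± 108 CPM, and it passed under all 15 alternatives, with adjusted p of at most 0.0214. Baat, which transfers the activated bile acid to taurine or glycine, measured 263 to 319.8 CPM in WT and 277 to 326 CPM in SCADD (log2 fold change 0.04, SE 0.15).

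The within-library ratio of Slc27a5 to Baat summarises that contrast without any scaling between libraries. It was 3.94, 3.13 and 3.31 in WT and 1.34, 1.59 and 1.18 in SCADD on TPM, so the groups did not overlap. The ratio of Cyp7b1 to Cyp7a1, alternative against classical hydroxylase, was 9.82, 6.48 and 23.9 in WT and 3.12, 3.88 and 5.92 in SCADD. Those values did not overlap on TPM, but they did on CPM per kilobase, and WT replicate 3 stood far above the other two WT livers. The ratio of Cyp8b1 to Cyp7a1 overlapped, at 18.6 ± 4.72 in WT and 18.4 ± 4.84 in SCADD (SD, n = 3 each). No p is given for ratios.

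**Figure D3:**
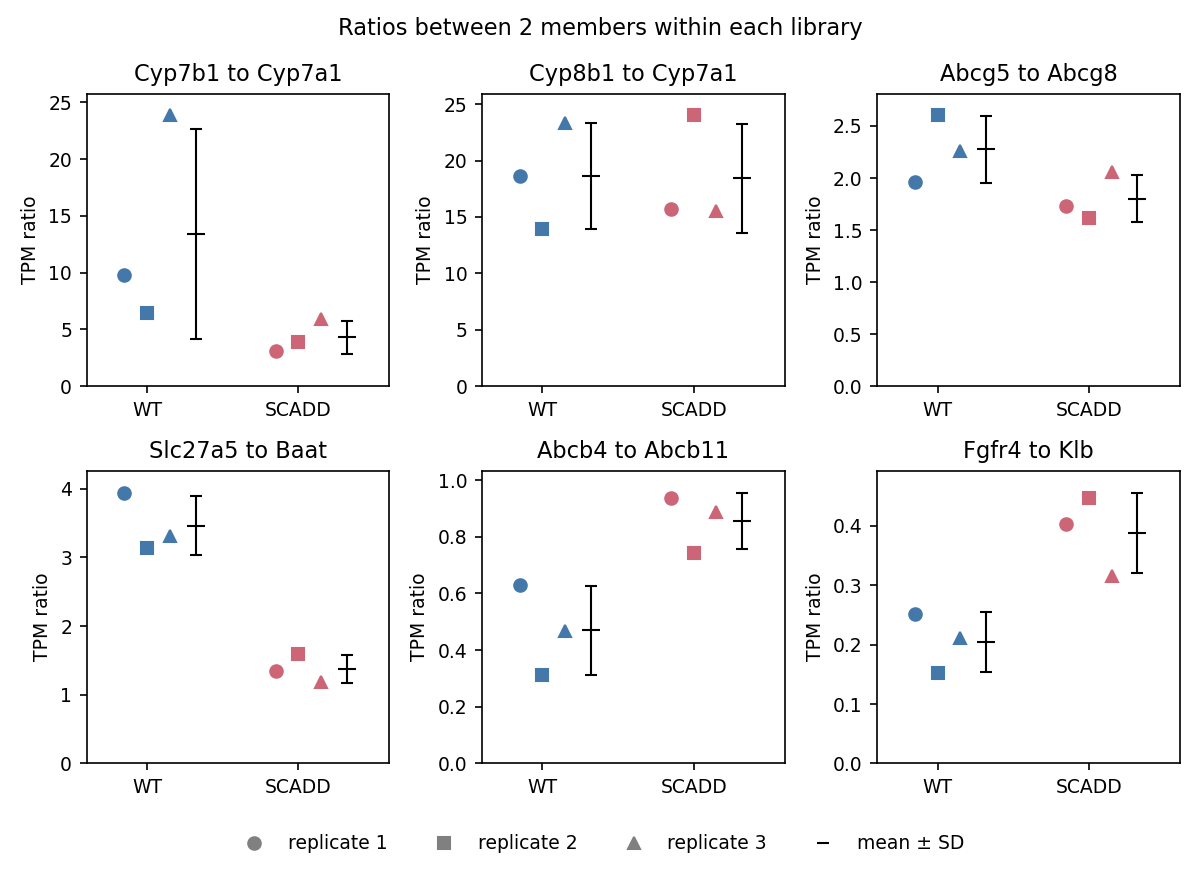
Within-library TPM ratio of 6 pairs of genes, 1 point per library with mean and SD for each group. Slc27a5 to Baat is lower in all 3 SCADD libraries, Abcb4 to Abcb11 and Fgfr4 to Klb are higher, and Cyp8b1 to Cyp7a1 and Abcg5 to Abcg8 overlap.

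Among 5 basolateral uptake carriers 2 fell. Slc10a1, the sodium-dependent carrier that takes up most conjugated bile acids (ENSMUSG00000021135, chromosome 12, 80953183 to 80968705), measured 1086, 1389 and 1174 CPM in WT and 782, 720.0 and 572 CPM in SCADD. Each SCADD liver lay below each WT liver (log2 fold change -0.81, SE 0.18, adjusted p = 0.0239). Over the alternatives its adjusted p ran from 0.00012 to 0.130, and the call was lost without WT replicate 2 (0.130) and without WT replicate 3 (0.0774).

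Slco1a4, a sodium-independent organic anion carrier (ENSMUSG00000030237, chromosome 6, 141805440 to 141856199), measured 149, 167 and 126 CPM in WT and 82.0, 48.5 and 43.4 CPM in SCADD. The groups did not overlap (log2 fold change -1.35, SE 0.23, adjusted p = 0.00738), and the call held under all 15 alternatives, with adjusted p of at most 0.0419. Slco1b2 and Slco1a1, related carriers in the same cluster on chromosome 6, did not share that direction. Slco1b2 measured 2830, 3048 and 3180 CPM in WT and 3975, 3182 and 7076 CPM in SCADD, where replicate 3 stood far above the others (log2 fold change 0.65, SE 0.27, adjusted p = 0.186). Slco1a1 measured 868 to 1103 CPM in WT and 631 to 1826 CPM in SCADD (0.33, SE 0.32), and its sign turned to -0.10 without SCADD replicate 3. Slco2b1 measured 36.5 to 51.1 CPM in WT and 37.0 to 51.0 CPM in SCADD.

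These carriers are similar in sequence, and reads that fit several genes are left out by STAR but shared out by RSEM. The RSEM fit called the same 8 genes of the set as the STAR fit. Slc10a2, the sodium-dependent carrier of ileum and of bile duct cells, measured 1.27, 4.20 and 8.56 CPM in WT and 36.1, 21.5 and 30.9 CPM in SCADD. All SCADD livers were above all WT livers, yet the spread among WT livers was wide, and the difference did not pass (log2 fold change 2.66, SE 0.63, adjusted p = 0.0677). Its adjusted p ran from 0.00615 with DESeq2 to 0.210 without SCADD replicate 1, and it passed with the 1 CPM filter (0.0451), without WT replicate 1 (0.00737) and without WT replicate 3 (0.0174). Its log2 fold change was 2.19 without WT replicate 1 and 3.45 without WT replicate 3.

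Markers of other cell types were read beside Slc10a2, and their part in its values was not tested. Of 8 cholangiocyte markers 4 were tested and edgeR called 0 (at an unadjusted p under 0.05 the count was 2, and with DESeq2 it was 0). Their summed level was 37.6 to 47.3 TPM in WT and 28.2 to 30.7 TPM in SCADD, and no marker was at 0 in all libraries. Without SCADD replicate 3, 2 of them were lower. Of 5 intestine markers Cdx2, Fabp6 and Lct had 0 counts in every library. Fabp2 was the sole one tested, at 242, 242 and 306 CPM in WT and 524, 311 and 801 CPM in SCADD (log2 fold change 1.05, adjusted p = 0.0641). Fabp2 passed with DESeq2, with no filter, with the block and without SCADD replicate 2, with adjusted p from 6.36e-07 to 0.0125 in these and from 6.36e-07 to 0.199 over all alternatives.

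**Figure D4:**
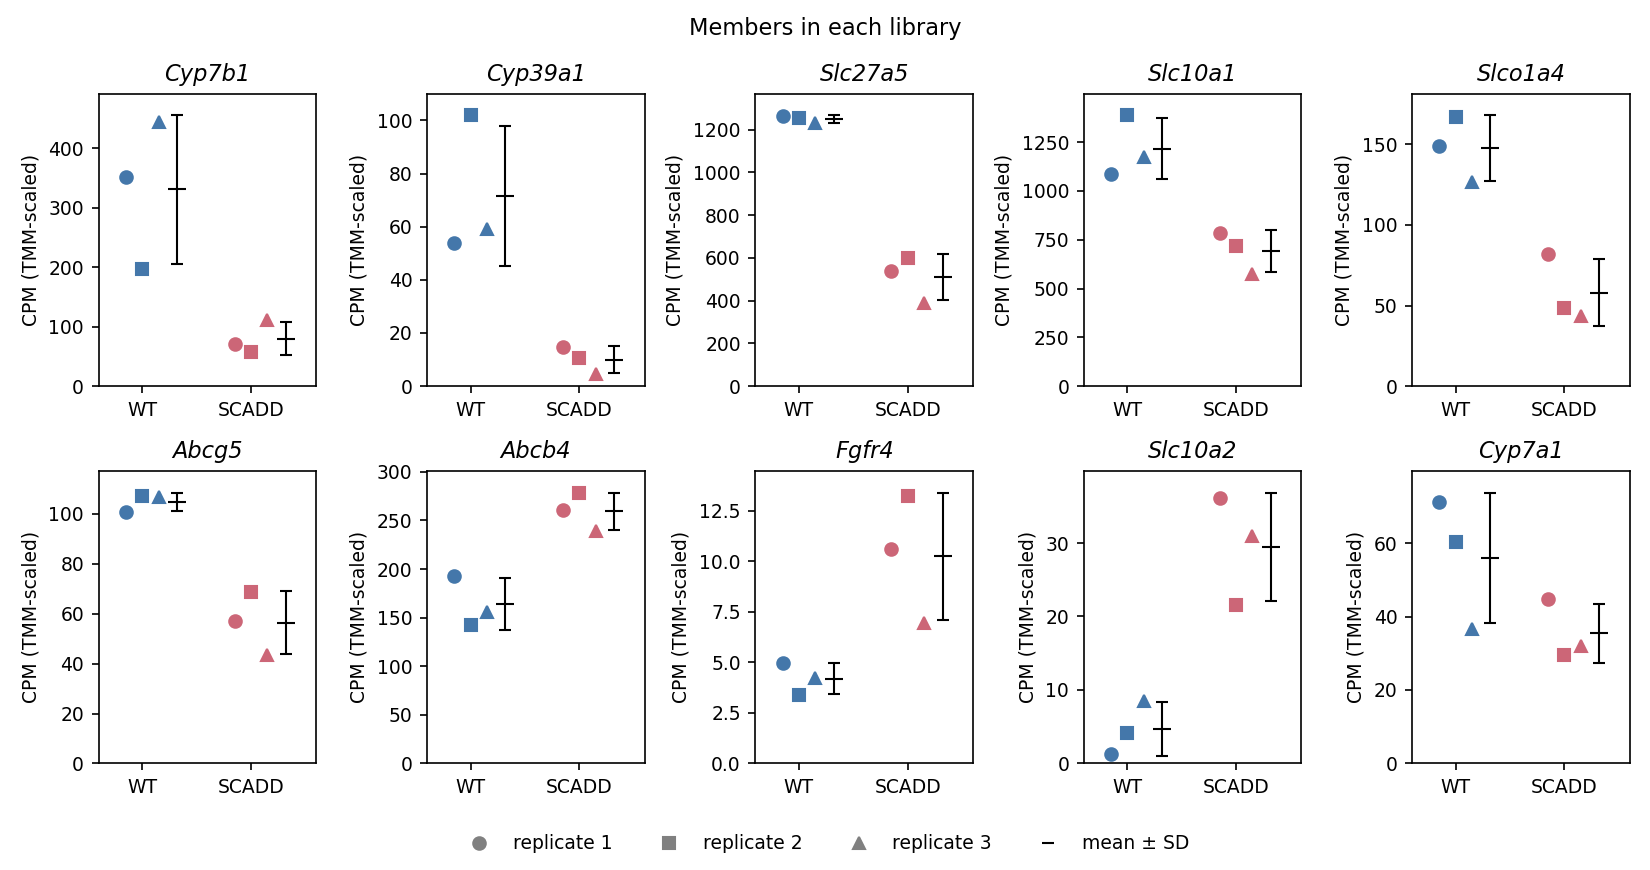
CPM (TMM-scaled, linear axes from 0) of the 8 called genes and of Slc10a2 and Cyp7a1 in each library, with mean and SD for each group of 3. For all but Cyp7a1 the WT and SCADD points do not overlap.

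Of 7 canalicular genes 1 fell and 1 rose. Abcb4, the floppase that supplies phosphatidylcholine to bile (ENSMUSG00000042476, chromosome 5, 8893717 to 8959231), measured 193, 142 and 156 CPM in WT and 261, 278 and 239.5 CPM in SCADD. In CPM every SCADD liver was above every WT liver (log2 fold change 0.66, SE 0.16, adjusted p = 0.0315). On TPM the groups of Abcb4 overlapped (45.6 in SCADD replicate 3, 52.0 in WT replicate 1). The call was among the least stable of the 8: it was lost without WT replicate 2 (0.159), WT replicate 3 (0.127), SCADD replicate 1 (0.114) or SCADD replicate 2 (0.0518), in a range from 0.00173 to 0.159.

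Abcb11, the bile salt export pump, measured 288, 436 and 283 CPM in WT and 268, 347 and 196 CPM in SCADD, with overlapping groups (log2 fold change -0.31, SE 0.24, adjusted p = 0.481). The ratio of Abcb4 to Abcb11 in TPM was 0.629, 0.312 and 0.466 in WT and 0.935, 0.743 and 0.889 in SCADD, higher in each SCADD library. Abcc2, the exporter of conjugated anions, measured 147 to 169.8 CPM in WT and 146 to 230.3 CPM in SCADD (0.31, SE 0.18), and passed only without SCADD replicate 3 (adjusted p = 0.0363, in a range from 0.0363 to 0.664). Atp8b1, a flippase of the canalicular membrane, measured 15.8 to 17.3 CPM in WT and 15.7 to 17.2 CPM in SCADD. Abcb1a, a drug exporter at the bottom of the measured range, had 17, 13 and 17 counts in WT and 36, 36 and 14 in SCADD (1.16, SE 0.33, adjusted p = 0.0586). It passed with no filter and without SCADD replicate 3 (0.0187), in a range from 0.0187 to 0.187.

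Abcg5 and Abcg8 encode partner subunits of 1 sterol exporter and lie head to head on chromosome 17. Abcg5 (ENSMUSG00000040505, 84658234 to 84683011) measured 101, 107 and 107 CPM in WT and 57.2, 68.6 and 43.4 CPM in SCADD. The WT livers nearly coincided and stood above all SCADD livers (log2 fold change -0.89, SE 0.17, adjusted p = 0.0104). The adjusted p ran from 2.42e-06 to 0.0527, and the call was lost without WT replicate 2 (0.0527). Abcg8 measured 68.9, 52.2 and 65.1 CPM in WT and 45.1, 58.1 and 31.1 CPM in SCADD, where replicate 2 lay among the WT values (log2 fold change -0.47, SE 0.21, adjusted p = 0.214). It passed with no filter (0.0422) and without SCADD replicate 2 (0.0451), in a range from 0.0422 to 0.407. The ratio of Abcg5 to Abcg8 was 2.28 ± 0.321 in WT and 1.80 ± 0.227 in SCADD on TPM, with overlap, while on CPM per kilobase it did not overlap. The annotated genes overlap on opposite strands, and 7.03% of reads over Abcg8 lay on the strand of Abcg5, and the stranded counts leave these out.

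The 109 bases between the RefSeq starts of both genes (84683011 for Abcg5 and 84683121 for Abcg8) are shown because the subunit genes are transcribed away from this stretch in opposite directions. The stretch is chr17:84683012-84683120, RefSeq table on GRCm38.p6, plus strand, with CG pairs in capitals:
Abcg5-Abcg8 between starts: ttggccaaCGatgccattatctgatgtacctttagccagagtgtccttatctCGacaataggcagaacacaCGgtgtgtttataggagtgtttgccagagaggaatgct

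Because Abcg5 and Abcg8 are textbook targets of the oxysterol receptor LXR, other LXR targets were counted. Of 10 tested, Lpl was lower (log2 fold change -2.03, adjusted p = 0.00262) and Scd1 higher (3.03, adjusted p = 0.0475), with a median of -0.02. Scd1 lost its call with no filter and without any 1 of WT replicates 2 and 3 and SCADD replicates 1, 2 and 3, with adjusted p from 0.0548 to 0.185. Of 21 tested sterol synthesis genes edgeR called 0 (at an unadjusted p under 0.05 the count was 1, and with DESeq2 it was 0), with 1 lower without WT replicate 1 and 2 higher without WT replicate 3.

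Neither of the 2 tested basolateral exporters passed in edgeR (0 did at an unadjusted p under 0.05, and 0 with DESeq2). Abcc3, which returns conjugates to blood, measured 83.0 to 132 CPM in WT and 94.7 to 168 CPM in SCADD (log2 fold change 0.23, SE 0.23), and its sign turned to -0.07 without SCADD replicate 2. Abcc4, a related exporter, lay under 1 CPM in every library (-0.69, SE 0.40). The heteromeric transporter of Slc51a and Slc51b was nearly silent. Slc51b had 8, 4 and 6 counts in WT and 1, 1 and 0 in SCADD. Slc51a had 2 sense counts in all libraries together, against 1375 reads on the opposite strand, where Pcyt1a overlaps it.

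Of 5 regulators 1 rose. Fgfr4, the hepatic receptor for the gut hormone Fgf15 (ENSMUSG00000005320, chromosome 13, 55152640 to 55168759), measured 4.96, 3.41 and 4.24 CPM in WT and 10.6, 13.2 and 6.95 CPM in SCADD. In CPM all SCADD livers lay above all WT livers (log2 fold change 1.29, SE 0.24, adjusted p = 0.0104). On TPM the groups of Fgfr4 overlapped (1.48 in SCADD replicate 3, 1.62 in WT replicate 1). Its adjusted p ran from 2.08e-08 to 0.0614, and the call was lost without WT replicate 2 (0.0614). Klb, its coreceptor, measured 20.5, 21.4 and 20.2 CPM in WT and 25.9, 32.5 and 20.2 CPM in SCADD, with overlap (0.34, SE 0.17, adjusted p = 0.261). It passed only without SCADD replicate 3 (0.0366), in a range from 0.0366 to 0.662. The ratio of Fgfr4 to Klb in TPM was 0.251, 0.152 and 0.211 in WT and 0.404, 0.447 and 0.315 in SCADD, without overlap. The hormone gene itself, Fgf15, had 0 counts in every library.

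None of the 3 nuclear receptors passed in edgeR (2 did at an unadjusted p under 0.05, and 0 with DESeq2). Nr0b2 (SHP), the repressor induced by FXR, measured 19.9, 46.4 and 37.1 CPM in WT and 22.1, 22.3 and 20.97 CPM in SCADD. WT replicate 1 lay below all SCADD livers and the other two WT livers above them (log2 fold change -0.66, SE 0.26, adjusted p = 0.166). It passed with no filter (0.00119) and without WT replicate 1 (0.00883), in a range from 0.00119 to 0.456. Nr1h4 (FXR) measured 98.0 to 151 CPM in WT and 130.4 to 146 CPM in SCADD (0.09, SE 0.17), turning to -0.09 without WT replicate 1. Nr5a2 (LRH-1), an activator of Cyp7a1, Cyp8b1 and Nr0b2, measured 25.5, 22.4 and 25.8 CPM in WT and 30.1, 33.4 and 26.9 CPM in SCADD. Its SCADD values in CPM were all above WT by a small step that did not pass (0.30, SE 0.13, adjusted p = 0.216), and on TPM the groups overlapped.

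Promoter windows from RefSeq (GRCm38.p6, 250 bases before to 50 bases after a start) covered 26 of the 33 genes in 32 windows of 32851. The LRH-1 motif (CAAGGTCA or CAAGGCCA, both strands) occurred in windows of Nr0b2 and Slc51a, 6.25% of the windows of the set and 3.92% of all windows. The nuclear receptor core hexamer AGGTCA, whose letters the first LRH-1 form contains, occurred in windows of 10 genes (31.25% of the set, 16.3% of all), among them Abcb11, Nr1h4, Nr5a2 and Slco1b2. The HNF1 hexamer GTTAAT occurred in 4 genes (12.5% against 7.10%). Inverted repeats of AGGTCA spaced by 1 base and direct repeats spaced by 1 or 4 bases occurred in 0 windows of the set and in 0.00913%, 0.0396% and 0.0152% of all windows. The Nr0b2 window is shown because it holds the LRH-1 match in a known target of this receptor, with the match in capitals, first base at -201 from the start (chr4:133553126-133553375, plus strand):
Nr0b2: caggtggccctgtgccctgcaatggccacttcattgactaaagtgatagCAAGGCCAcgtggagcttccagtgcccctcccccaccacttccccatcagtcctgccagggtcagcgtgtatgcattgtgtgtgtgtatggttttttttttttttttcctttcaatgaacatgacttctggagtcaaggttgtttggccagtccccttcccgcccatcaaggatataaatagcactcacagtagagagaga

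Windows were also in the table for 5 of the 8 called genes. The 250 bases before the start are shown for 4 of them, the lowered carriers Slc10a1 (chr12:80968706-80968955, minus strand) and Slco1a4 (chr6:141856221-141856470, minus strand) and the raised genes Abcb4 (chr5:8893471-8893720, plus strand) and Fgfr4 (chr13:55152568-55152817, plus strand), with each CG pair in capitals. The CG count was chosen for display after the sequences were seen:
Slc10a1: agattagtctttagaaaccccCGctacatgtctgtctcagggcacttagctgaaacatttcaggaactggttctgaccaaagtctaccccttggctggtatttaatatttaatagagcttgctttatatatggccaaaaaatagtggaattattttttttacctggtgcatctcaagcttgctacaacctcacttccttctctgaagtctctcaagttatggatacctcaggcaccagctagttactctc
Slco1a4: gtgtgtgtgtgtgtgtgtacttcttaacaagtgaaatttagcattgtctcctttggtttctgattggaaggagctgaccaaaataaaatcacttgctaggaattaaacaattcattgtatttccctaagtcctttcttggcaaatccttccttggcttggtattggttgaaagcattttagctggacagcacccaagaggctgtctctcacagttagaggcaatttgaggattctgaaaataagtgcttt
Abcb4: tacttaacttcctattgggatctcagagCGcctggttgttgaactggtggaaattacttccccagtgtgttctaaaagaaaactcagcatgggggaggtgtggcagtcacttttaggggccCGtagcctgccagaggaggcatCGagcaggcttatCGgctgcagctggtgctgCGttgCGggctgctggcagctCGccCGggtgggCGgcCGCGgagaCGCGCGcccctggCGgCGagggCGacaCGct
Fgfr4: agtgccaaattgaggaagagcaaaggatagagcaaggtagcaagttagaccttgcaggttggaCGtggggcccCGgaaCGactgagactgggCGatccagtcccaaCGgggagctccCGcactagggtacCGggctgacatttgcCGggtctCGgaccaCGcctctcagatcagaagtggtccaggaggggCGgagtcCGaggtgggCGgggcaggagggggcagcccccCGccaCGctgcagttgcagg

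The Slc10a1 stretch held 1 CG pair and 40.8% G or C, and the Slco1a4 stretch 0 pairs and 39.2%. The Abcb4 stretch held 18 pairs and 61.6%, and the Fgfr4 stretch 15 pairs and 64.0%. Over the same 250 bases before each start in the table the median was 6 pairs (quartiles 2 and 16) and 52.4% G or C. With 4 genes this is a description of their sequence and nothing is drawn from it.

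Other bile acid genes from a list of 50, none of them described above except Fgf15, gave 43 tested, with 1 lower and 5 higher and a median log2 fold change of 0.19. Over all tested genes 2.80% were lower and 4.22% higher, with a median of -0.00078. Cyp2c70, which makes the muricholic acids of the mouse, measured 130.4, 214 and 221 CPM in WT and 48.9, 43.6 and 51.2 CPM in SCADD. It stood clearly lower in all SCADD livers (log2 fold change -1.97, SE 0.20, adjusted p = 0.000351) and passed under every alternative run, with adjusted p of at most 0.00328. Nr1i3 (CAR), a xenobiotic receptor that also responds to bile acid load, measured 145, 171 and 199 CPM in WT and 315, 369 and 326 CPM in SCADD (0.97, SE 0.16, adjusted p = 0.00617). Prox1, a corepressor of Cyp7a1, measured 31.9, 33.6 and 32.02 CPM in WT and 57.4, 51.7 and 52.7 CPM in SCADD (0.73, SE 0.12, adjusted p = 0.00516). Both kept their calls under every alternative run.

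Myo5b, a motor that brings exporters to the canalicular membrane, rose by 0.89 log2 units (SE 0.16, adjusted p = 0.00867; 0.0522 without WT replicate 2, in a range from 1.88e-05 to 0.0522). Abcd3, a peroxisomal carrier of bile acid precursors, rose by 0.93 (SE 0.19, adjusted p = 0.0139), and S1pr2, a receptor for conjugated bile acids, by 1.27 (SE 0.31, adjusted p = 0.0339). Abcd3 and S1pr2 were named after their values were seen. Abcd3 lost its call without SCADD replicate 1, WT replicate 2 or WT replicate 3 (0.0689 to 0.0947), and S1pr2 without any 1 library but WT replicate 1 (0.0541 to 0.0937). The count of higher genes on this list was 2 without WT replicate 2, 3 without WT replicate 3 or SCADD replicate 1 and 11 without SCADD replicate 3, and the count of lower genes was 2 without SCADD replicate 2. Of 10 tested CAR and PXR targets, Por was higher (0.61) and Cyp3a13 lower (-0.69). Por lost its call without SCADD replicate 1, WT replicate 1 or WT replicate 2, and Cyp3a13 without SCADD replicate 1, WT replicate 2 or WT replicate 3, with adjusted p from 0.0757 to 0.149. Leaving out WT replicate 1 gave 2 lower calls on that list, and leaving out WT replicate 3 or SCADD replicate 3 gave 2 higher.

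**Figure D5:**
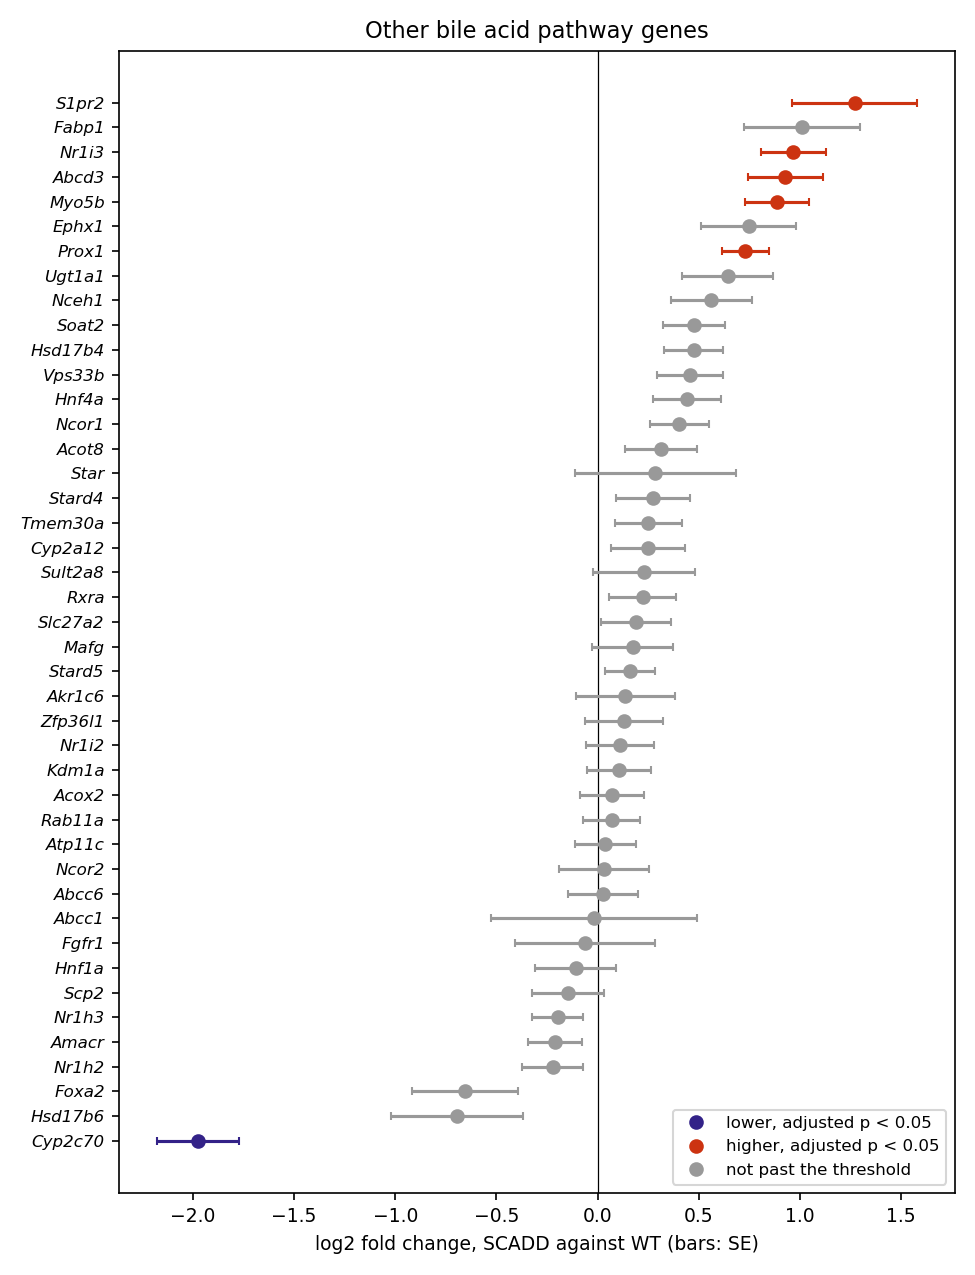
Log2 fold change of SCADD against WT (x axis, bars are SE) for the 43 tested genes of the other bile acid list. Cyp2c70 (-1.97) stands alone on the left among called genes, and 5 genes called higher lie between 0.73 and 1.27.

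State and cell make-up were read from marker lists, as the Cyp7a1 level is known to vary with time of day and feeding. Of 15 tested clock genes Hlf was higher (0.77) and 0 were lower, and of 14 fasting-response genes Lpin2 was higher (1.14) and Ppargc1a lower (-1.82). Hlf lost its call without SCADD replicate 2, WT replicate 1 or WT replicate 2 (0.0576 to 0.124), and Ppargc1a without SCADD replicate 3 (0.0516). The fasting list held 2 lower calls without WT replicate 1, and 2 higher calls without SCADD replicate 2 or 3. Of 11 periportal hepatocyte markers 3 were lower (Cdh1, -2.22; Sds, -0.96; Sdsl, -0.89) and 0 higher, with a median of -0.72 and a summed level of 3754 to 4200.0 TPM in WT and 2211 to 3473 TPM in SCADD. With DESeq2 6 periportal markers were lower and 0 higher, and in edgeR 8 had an unadjusted p under 0.05. The edgeR count of lower periportal markers was 8 without SCADD replicate 2, and just 1 without WT replicate 2. Of 9 tested pericentral markers 2 were higher (Slc1a2, Cyp1a2) and 2 lower (Lgr5, Gulo), and the lower count was 0 without SCADD replicate 1, WT replicate 2 or WT replicate 3 and 1 without WT replicate 1 or SCADD replicate 2. The higher count was 0 without WT replicate 3 and 1 without SCADD replicate 3, WT replicate 1 or WT replicate 2. The part of these markers in the results above was not tested.

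Of the 8 hepatocyte markers Cps1 was lower (-0.97; adjusted p = 0.0504 without WT replicate 2), and of 6 sinusoidal endothelial markers Lyve1 was lower (-1.40; 0.0625 and 0.0703 without WT replicates 2 and 3), with a summed level of 110.3 to 125 TPM in WT and 59.8 to 80.7 TPM in SCADD. Without SCADD replicate 3 the endothelial count was 2, and without SCADD replicate 2 or 3 the hepatocyte list held 1 higher gene. Of 3 tested lymphocyte markers Ighm was higher (1.13), at a summed level of 6.34 to 7.97 TPM in WT and 8.54 to 14.0 TPM in SCADD. Neither the 6 Kupffer cell nor the 6 stellate markers held a call in edgeR (1 Kupffer cell and 0 stellate markers did at an unadjusted p under 0.05, and 0 of either with DESeq2), and 1 Kupffer cell marker was lower without SCADD replicate 3. No defining marker of these cell types was at 0 in all libraries.

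Genes near the 8 called members were checked because the groups are substrains. Within 500 kb of a called gene's start lay 75 tested genes, of which 1 was lower and 4 higher, or 6.67%, beside 7.02% of all tested genes. Beside Cyp39a1, Rcan2 was higher (2.39, SE 0.27, 134 kb away) and Adgrf1 lower (-2.48, SE 0.35, 397 kb away). Smoc1 near Slc10a1 (0.63), Gm6614 near Slco1a4 (1.63) and Gm40264 near Abcb4 (1.01) were higher, and Gm40264 is the fifth in order of p and was named after its values were seen. The called neighbours of Slc10a1 and Slco1a4 thus went against the direction of those carriers, and that of Abcb4 went the same way.

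SCADD replicate 3 was the lowest SCADD library for 23 of the 29 tested genes, whereas it was the lowest for 41.0% of all tested genes. It was also the library with most unmapped reads (36.6%) and fewest gene counts (16948986). Without it 6 of the 29 were called lower, as with it. The mean transcript length that RSEM assigned to a gene, a readout of isoform use, did not overlap between groups for 3 of the 29 tested genes. It went from 2212 to 2196 bases for Slc27a5, from 3764 to 3835 for Abcb4 and from 1978 to 1976 for Nr1h4, and a two-sided exact permutation test of 3 against 3 libraries cannot go below p = 0.1, which each of them reached. The share of all tested genes with such a separation of lengths was not computed, so nothing is drawn from this count. Reads on the opposite strand were under 1% for 27 of the 29 tested genes, Abcg8 and Abcc4 being the others.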

How the data were processed

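Gene expression was compared between livers of 3 WT and 3 SCADD mice, grouped by the genotype label. The submitters' processing notes name STAR 2.7.6a, RSEM 1.3.3 and the build GRCm38, with an annotation release not given in the sources used here. The authors deposited raw STAR counts per gene, unnormalised, with 2 stranded columns, of which the one holding 96.8% to 97.3% of stranded reads was used. The deposited RSEM tables give expected counts, which were rounded for 1 alternative fit, and TPM, scaled by the authors' RSEM run to 1 total per library. Symbols and coordinates came from GENCODE release M21 (55227 of 55487 IDs matched). STAR summary lines were left out of totals (unmapped 13.6% to 36.6%, multi-mapped 10.1% to 13.1%, in no gene 1.47% to 2.17%, ambiguous 1.09% to 1.53%).

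Counts of all genes were filtered (filterByExpr, minimum count 10), scaled by TMM and tested for group with edgeR 4.0.16 (glmQLFit robust, glmQLFTest) in R 4.3.3. SE is the log2 fold change over the root of F. On simulated counts of 13304 genes for this comparison, the test recovered 9.38% of genes changed 1.5-fold, 64.2% at 2-fold and 92.2% at 4-fold, and 6 of its 114 calls were false. Replicate libraries of a group differed by more than sampling noise (chi-square of 36.5 to 135 per degree of freedom). The 33 members and all lists were chosen with earlier results of these data known. All members are described; of each list up to 4 called genes with the smallest p are named, or up to 2 where none was called, and the called neighbours up to 4. The rule also takes 1 gene that is not reported here. The alternatives changed scaling (RLE, upper quartile), the filter (none, or a minimum of 1 CPM in 3 libraries), the tool (DESeq2 1.42.0), the counts (RSEM, unstranded, or without Mup genes), added a replicate block or left out each library.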

Additional observations from a re-analysis of the deposited data

How the results depend on the processing

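The number of called genes over the whole table, 947, was 1702 with no filter and 395 to 1590 when 1 library was left out (lowest without WT replicate 2, highest without SCADD replicate 3). Of the bile acid genes 2 were higher; this was 5 with no filter and 0 to 5 with 1 library left out. The 6 lower calls were 4 to 7 with 1 library left out and 9 with no filter, and scaling, RSEM, unstranded counts and removal of Mup genes left both counts at 6 and 2. DESeq2 called 7 lower and 3 higher, and the filter of 1 CPM in 3 libraries gave 6 lower and 3 higher. The cause of these changes was not tested.

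Signs turned only in genes with small, uncalled differences. With upper-quartile scaling the log2 fold change was -0.0243 for Cyp27a1, -0.00915 for Baat and -0.026 for Atp8b1, and with RSEM counts it was -0.00508 for Atp8b1. With 1 library left out it ran from -0.0359 to 0.115 for Cyp27a1, from -0.312 to 0.00524 for Hsd3b7, from -0.0539 to 0.103 for Baat, from -0.103 to 0.624 for Slco1a1, from -0.0397 to 0.222 for Slco2b1, from -0.0237 to 0.0657 for Atp8b1, from -0.0676 to 0.417 for Abcc3 and from -0.0896 to 0.21 for Nr1h4.

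The libraries share replicate numbers between groups. Deviations from the group means correlated at 0.0606, 0.0372 and 0.107 for numbers 1, 2 and 3, and at -0.127 to 0.0612 for unlike numbers. WT replicate 2 correlated best with SCADD replicate 1 (0.0612), and WT replicates 1 and 3 with their own number. These values do not settle whether the numbers pair the animals. With the replicate block 1148 genes were called, 7 bile acid genes lower and 2 higher, and Cyp7a1 was the gene added. Genes under about 1 CPM, such as Abcb1a and Abcc4, rest on few counts.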
